A study of Mus musculus with 24 samples.

Results

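The data described here are the mRNA levels of 31 genes of sterol and fatty acid synthesis in mouse B cells with mutant Spi1, the gene for PU.1, mutant Spib or both. The members were chosen by symbol, as the enzymes of cholesterol synthesis from acetoacetyl-CoA onwards, the SREBP regulators, sterol transporters and the enzymes of fatty acid synthesis and desaturation. Of the 27179 genes in the count tables, 31 of 31 members were found, and all reached a scaled count (CPM) of 0.5 in at least 2 libraries of each stage. Follicular B cells were taken from lymph nodes of C57BL/6 mice of 4 genotypes, and each genotype was sequenced in 3 stages with 2 libraries per group, 24 libraries in all. The control mice carried the Cd23-Cre BAC transgene alone (Cd23T/+), with unfloxed Spi1. PU.1 cKO mice were Spi1fl/fl Cd23T/+. SpiB KO mice were Spi1fl/fl Cd23+/+ Spib-/-, so that they had floxed but uncut Spi1 and no Cre. PU.1 SpiB DKO mice, called the double mutant here, were Spi1fl/fl Cd23T/+ Spib-/-. Cre driven by Cd23 acts from the transitional stage of B cell development, whereas Spib was mutant in every cell of the animal. Per the study, naive cells of the double mutant still held much of the floxed Spi1 exon, so in that stage they are no complete loss of PU.1. The B cells were sequenced without culture (naive) or after 48 h with CD40L and IL-4 or with LPS and IL-4. The study sorted the B cells for RNA-seq, naive or activated, as positive for B220 and negative for CD3 and CD138.

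Cholesterol is built from acetyl-CoA through mevalonate, squalene and lanosterol. When membrane sterol is low, SCAP carries the SREBP factors from the endoplasmic reticulum to the Golgi, where they are cut, and the freed part enters the nucleus and switches on most genes of the pathway and of fatty acid synthesis. INSIG1 holds SCAP back when sterol is plentiful, and oxidized sterols act on the LXR receptors, which switch on the exporters ABCA1 and ABCG1 and the SREBP-1 gene. Lymphocytes that leave rest and start to divide are known to raise this programme to build new membranes. PU.1 and SpiB are related ETS factors that bind the same purine-rich DNA sequence and overlap in function in B cells.

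Total counts ran from 14231188 to 18194629 in naive libraries and from 22757630 to 73658850 in LPS libraries. In the CD40L libraries they ran from 9598674 to 11434235, except for PU.1 cKO replicate 2 with 61640683. Spib was between 208.7 and 1601 CPM in control libraries and between 8.87 and 107.1 CPM in SpiB KO and double mutant libraries. Spi1 was at 168.6 and 181.7 CPM in naive control, 63.6 and 57.1 CPM in naive PU.1 cKO and 108 and 117.6 CPM in the naive double mutant, and in LPS it was not lowered past the test in the double mutant (58.8 and 54.8 CPM against 69.1 and 60.0 CPM). Counts over the whole Spi1 gene do not show whether the floxed exon was cut. Per the study, that exon was fully cut with CD40L, and to a similarly high degree with LPS. The naive and LPS libraries share 1 count table and the CD40L libraries have another, so a difference between CD40L and the other stages cannot be told apart from a difference between tables. In these bulk libraries fewer cells of a type and less RNA per cell cannot be told apart.

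In resting control B cells the desaturases and the regulators led the module. Levels between genes are compared here on the log2 RPKM scale, which accounts for transcript length. In naive control, Scd1, which puts the first double bond into saturated fatty acids, stood highest at a mean of 9.14 log2 RPKM, followed by Srebf2, the gene of the SREBP that favours sterol targets, at 7.01. Acly, which splits citrate into acetyl-CoA, followed at 5.98 and Scd2, a second desaturase, at 5.86. At the other end were Idi1, the isopentenyl diphosphate isomerase, at 0.18 and Elovl6, which lengthens palmitate, at -1.65. With CD40L the order began with Scd1 at 7.70, Scd2 at 7.32 and Srebf2 at 7.12 and ended with Abca1 at -0.20 and Elovl6 at -1.37. With LPS it began with Scd1 at 7.16, Acly at 6.83 and Srebf2 at 6.81 and ended with Abca1 at -2.62. The plot of control levels by stage shows each library.

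**Figure D1:**
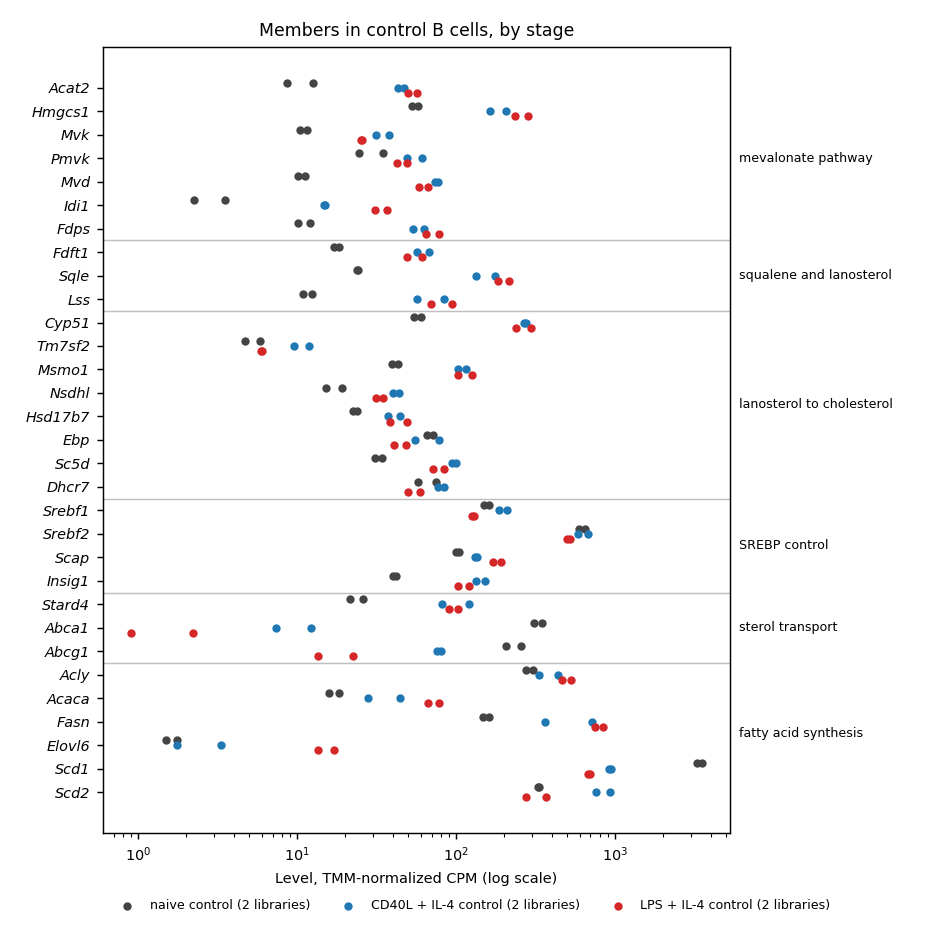
Level of each of the 31 members in the control libraries, as TMM-normalized CPM on a log scale, with 1 point per library (2 per stage) and members grouped by role. Most enzymes of the sterol pathway sit further right in both cultures than in naive cells, while Abca1, Abcg1 and Scd1 sit further left.

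The first question was how the module differed between resting and activated control B cells. Differential expression (DE) required an adjusted p below 0.15 in the quasi-likelihood test of edgeR (Benjamini-Hochberg, over all genes tested), a fold above 1.5 and a mean log2 RPKM above 0. With CD40L, 24 of 31 members were DE against naive control, 21 higher and 3 lower, where 35% of the 13684 genes tested were DE. With LPS, 26 were DE, 22 higher and 4 lower, where 47.4% of all genes were. The median log2 change was 1.35 over the members with CD40L and 1.26 with LPS, against 0.00 and 0.01 over all genes tested. Control CD40L and LPS are set against the same 2 naive libraries, so these results are not independent. The 24 calls with CD40L stayed 24 under each alternative processing, and those with LPS were 25 or 26.

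The 7 members of the mevalonate pathway were higher in both cultures. Mvd, which makes isopentenyl diphosphate, was at 10.1 and 11.2 CPM in naive control, 76.5 and 73.1 CPM with CD40L and 58.6 and 66.4 CPM with LPS. No library of one stage reached the range of another. The log2 change against naive was 2.81 ± 0.14 (SE) with CD40L (edgeR adjusted p = 1.49e-12) and 2.55 ± 0.14 with LPS (adjusted p = 3.17e-12). Idi1 was lowest in this branch, at 3.50 and 2.23 CPM in naive control, and stood at 14.7 and 15.1 CPM with CD40L and at 30.8 and 36.9 CPM with LPS. It was the only mevalonate gene that also differed between the cultures, by a log2 change of 1.19 ± 0.22 in LPS against CD40L (adjusted p = 0.000166). Hmgcs1, the HMG-CoA synthase, went from 57.5 and 52.7 CPM to 205.5 and 164.4 CPM with CD40L and to 234.5 and 282.6 CPM with LPS. The remaining members, Acat2, Mvk, Pmvk and Fdps, changed by 0.90 to 2.39 on the log2 scale with CD40L and by 0.63 to 2.69 with LPS. Pmvk, the phosphomevalonate kinase, had the smallest of these changes, and with LPS its call was lost without naive control replicate 2 (0.41, adjusted p = 0.0461) or without LPS control replicate 2 (0.53, adjusted p = 0.0195), where the fold was under 1.5.

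The enzymes that join 2 farnesyl units and close the sterol rings behaved alike. Sqle, the squalene epoxidase, was at 24.3 and 23.9 CPM in naive control, at 174.8 and 133.2 CPM with CD40L and at 182.6 and 214.3 CPM with LPS. This was a log2 change of 2.68 ± 0.20 with CD40L (adjusted p = 4.32e-10) and of 3.04 ± 0.20 with LPS (adjusted p = 3.21e-11). Lss, the lanosterol synthase, rose by 2.60 and 2.81 on the log2 scale, and Fdft1, the squalene synthase, by 1.80 and 1.64. Fdft1 shares 18.3% of its exon bases with Ctsb on the opposite strand, and Fdps 26.7% with Gm43738 on the same strand. The library kit is not stated to keep strand, so reads in the bases shared by Fdft1 and Ctsb may not be told apart. Fdps and Gm43738 lie on the same strand, so strand could not part their reads. These overlaps are those of the GENCODE annotation, while counts were made over RefSeq exons. Their effect on the counts was not checked.

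Between lanosterol and cholesterol the members split. With CD40L 6 of 8 were higher and none was lower, and with LPS 5 were higher and 1 lower. Cyp51, the lanosterol demethylase and the first step, rose most in this branch, from 54.2 and 59.9 CPM to 274 and 267.2 CPM with CD40L and to 238.3 and 295.6 CPM with LPS (log2 changes 2.25 ± 0.15 and 2.23 ± 0.15). Sc5d, Msmo1, Nsdhl and Hsd17b7, which act on the following intermediates, rose by 0.82 to 1.58 on the log2 scale with CD40L and by 0.93 to 1.48 with LPS. Ebp, the sterol isomerase, was at 71.9 and 65.3 CPM in naive control, 55.5 and 77.9 CPM with CD40L and 40.6 and 48.1 CPM with LPS. Its libraries overlapped between naive and CD40L, and it fell with LPS (log2 change -0.63 ± 0.18, adjusted p = 0.00384), a call lost without naive control replicate 1 (-0.56) or LPS control replicate 1 (-0.52), where the fold was under 1.5. Dhcr7, which catalyses the last reduction of one branch of the pathway, was DE in neither culture (0.28 and -0.28). Tm7sf2, a sterol reductase at 4.72 to 11.9 CPM in control, was DE with CD40L (1.01 ± 0.23) and not with LPS (0.17), and it shares 12.1% of its exon bases with Vps51 on the same strand.

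The genes that control SREBP changed less. Srebf2 was at 593.3 and 647.8 CPM in naive control, 674.9 and 583.1 CPM with CD40L and 499.7 and 518 CPM with LPS, and it was DE in neither culture (log2 changes 0.02 and -0.29). Srebf1, whose product favours fatty acid genes, was likewise not DE against naive (0.34 and -0.28), but it was lower in LPS than in CD40L by 0.63 ± 0.11 on the log2 scale (adjusted p = 7.88e-05). That call was lost without CD40L control replicate 1, where the change was -0.54. Insig1, itself a target of SREBP, was at 42.0 and 40.3 CPM in naive control and rose to 152.6 and 132.5 CPM with CD40L and 102.9 and 120.3 CPM with LPS. Scap rose with LPS only past the test, from 104.3 and 99.6 CPM to 170.1 and 191.4 CPM (0.83 ± 0.11, adjusted p = 7.57e-07), whereas with CD40L its change was 0.39. Between LPS and CD40L it differed by 0.44 ± 0.11 (adjusted p = 0.00199), which passed the p but not the fold.

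Sterol movement inside the cell and sterol export went in opposite directions. Stard4, which moves cholesterol between membranes, was at 26.0 and 21.3 CPM in naive control, 121.1 and 81.4 CPM with CD40L and 90.6 and 102.9 CPM with LPS. Abca1, which loads cholesterol onto apolipoproteins, was at 311 and 346.4 CPM in naive control, at 12.2 and 7.38 CPM with CD40L and at 2.20 and 0.91 CPM with LPS. These were the largest falls among the members, with log2 changes of -5.05 ± 0.36 with CD40L (adjusted p = 3.66e-09) and -7.87 ± 0.41 with LPS (adjusted p = 3.37e-11). Abcg1, which exports sterol to lipoprotein particles, fell from 207.2 and 256.7 CPM to 79.8 and 75.8 CPM and to 22.4 and 13.6 CPM (log2 changes -1.58 ± 0.24 and -3.71 ± 0.26). It was also lower in LPS than in CD40L, by 2.13 ± 0.25 on the log2 scale (adjusted p = 1.75e-06).

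Among the 6 members of fatty acid synthesis, Fasn, the fatty acid synthase, was at 146.9 and 160.3 CPM in naive control and at 744.1 and 833.8 CPM with LPS. With CD40L its 2 control libraries stood apart, at 715.2 and 362.6 CPM, and both lay above naive (log2 change 1.81 ± 0.22). Acaca, the acetyl-CoA carboxylase that commits carbon to fatty acids, rose by 1.08 ± 0.19 with CD40L and by 2.07 ± 0.19 with LPS. Elovl6 rose with LPS, from 1.75 and 1.49 CPM to 13.6 and 17.1 CPM (3.24 ± 0.33, adjusted p = 2.63e-08), and not past the test with CD40L (3.30 and 1.74 CPM, log2 change 0.66). The desaturases parted from the rest. Scd1 fell from 3498 and 3262 CPM to 936.2 and 909.2 CPM with CD40L and to 678.9 and 697.2 CPM with LPS (-1.87 ± 0.15 and -2.30 ± 0.15), while Scd2 rose with CD40L from 329.2 and 330.8 CPM to 923.7 and 754.1 CPM (1.35 ± 0.20) and was at 274.5 and 367.1 CPM with LPS (-0.04). Scd2 was lower in LPS than in CD40L by 1.39 ± 0.20 (adjusted p = 1.04e-05).

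**Figure D2:**
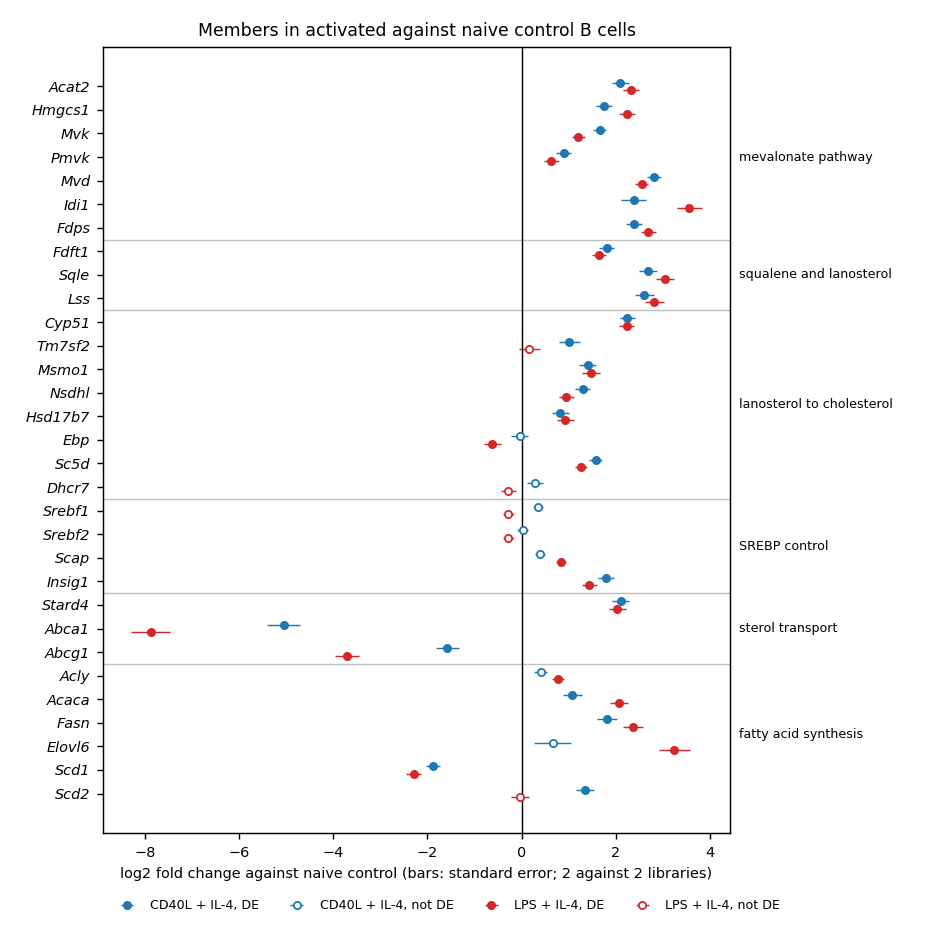
log2 fold change of each member in control B cells with CD40L and IL-4 or LPS and IL-4 against naive control, with standard errors (2 against 2 libraries); filled points were DE and open points were not. Mevalonate, squalene and lanosterol members lie between 0.63 and 3.56, and Abca1 lies furthest left at -5.05 and -7.87.

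Between the cultures, 7 of 31 members were DE in LPS against CD40L control, where 31.1% of genes were: Elovl6, Idi1 and Acaca were higher and Abcg1, Scd2, Tm7sf2 and Srebf1 were lower. Abca1 had a log2 change of -2.82 there (adjusted p = 2.62e-05) but a mean below the RPKM minimum. Without CD40L control replicate 1 the count of DE members was 11. The cycling cell list moved with activation: its 10 genes summed to between 231.6 and 292.5 CPM in naive libraries, 2817 and 3772 CPM with CD40L and 3874 and 4577 CPM with LPS, and 10 of 10 rose in control in both cultures. Its part in the changes of the sterol and fatty acid genes was not tested. The B cell list (6 genes) summed to between 8193 and 11100 CPM in naive libraries, between 3658 and 7939 CPM with CD40L and between 2786 and 4139 CPM with LPS.

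Because so many members rose together with activation, the sequence in front of them is shown for Hmgcs1 and Mvd, 2 members that rose in both cultures. RefSeq promoters of GRCm38.p6, from 250 bases before to 50 bases after the start of the gene, were at hand for 24 of 31 members. The CCAAT letters, the core bound by NF-Y, a partner of SREBP, were found on either strand in 19 of these 24 promoters (79.2%), and in 41.1% of the 27025 genes with a promoter. The sterol regulatory element TCACNCCAC was found in 1 of 24 (4.17%), that of Hmgcs1 at 137 bases before the start, and in 1.44% of all genes. The windows below end before the start given in the promoter table and hold no exon base of the GENCODE annotation, and capitals mark the matches, with ATTGG standing for CCAAT on the opposite strand.
Hmgcs1, chr13:119690166-119690320, plus strand: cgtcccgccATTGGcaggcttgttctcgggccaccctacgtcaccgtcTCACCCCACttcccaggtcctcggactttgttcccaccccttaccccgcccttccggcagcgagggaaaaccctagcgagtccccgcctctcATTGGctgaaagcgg
Mvd, chr8:122443423-122443497, minus strand: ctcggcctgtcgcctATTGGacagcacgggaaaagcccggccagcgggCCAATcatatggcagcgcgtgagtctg
In Hmgcs1 the sterol element lies between 2 CCAAT matches. A match is a description of letters only, and binding was not measured.

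The second question was how the genotypes differed within each stage. Each genotype was set against the same 2 control libraries of its stage, so the 3 comparisons of a stage share their control. Compared with activation, few members differed, and the map of genotype changes shows them at once.

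**Figure D3:**
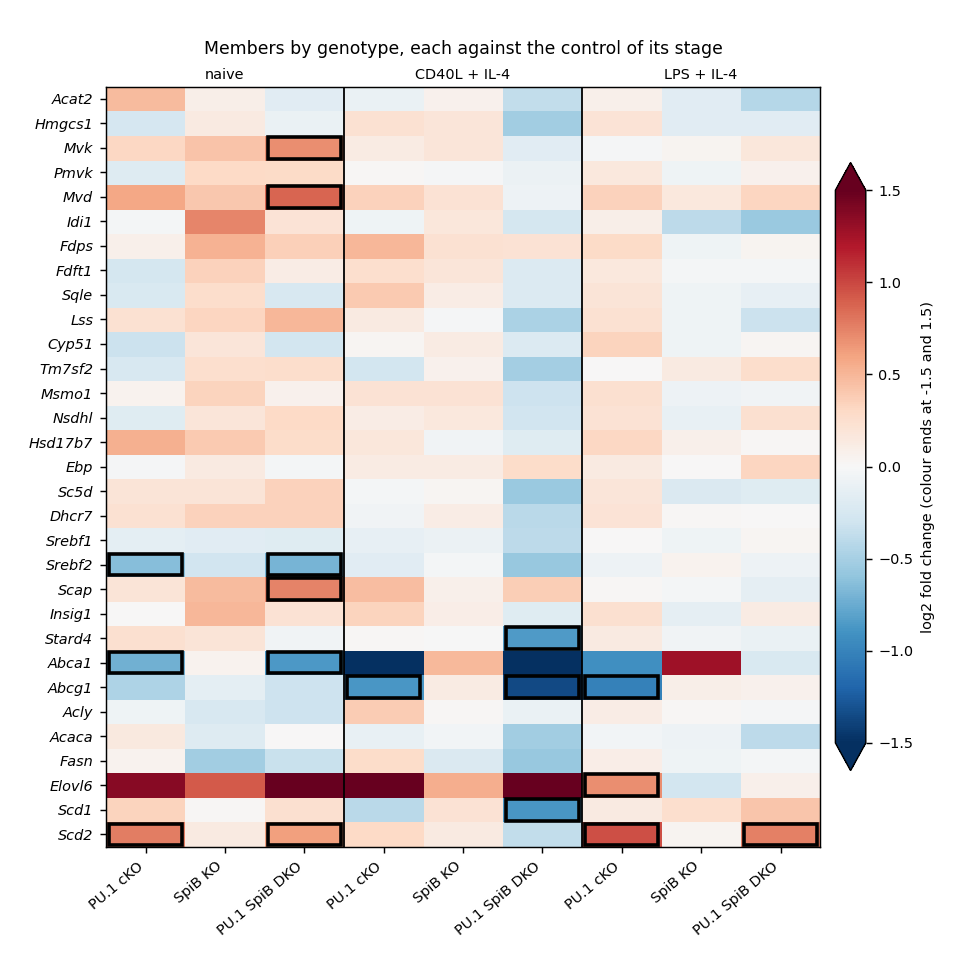
log2 fold change of each of the 31 members (rows) in PU.1 cKO, SpiB KO and PU.1 SpiB DKO against the control of the same stage (columns), in colour from -1.5 (blue) to 1.5 (red); black frames mark DE members. In naive cells frames fall on Scd2, Srebf2, Abca1, Mvk, Mvd and Scap. With CD40L they fall on Abcg1, Stard4 and Scd1, and with LPS on Scd2, Abcg1 and Elovl6. None falls in a SpiB KO column.

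In naive PU.1 cKO cells 3 of 31 members were DE, with 1 higher and 2 lower, where 8.26% of 12500 genes were DE, so the members' share (9.68%) was near that of all genes. Scd2 was at 329.2 and 330.8 CPM in control and at 518.1 and 609.8 CPM in PU.1 cKO. This rise of 0.77 ± 0.12 on the log2 scale (edgeR adjusted p = 0.00364) held without each library in turn. Srebf2 was at 593.3 and 647.8 CPM in control and at 427.1 and 370.8 CPM in PU.1 cKO, with no overlap (log2 change -0.64 ± 0.12, adjusted p = 0.0111). Without control replicate 2 (-0.55) its fold was under 1.5, and without PU.1 cKO replicate 2 (-0.56, adjusted p = 0.126) likewise. Abca1 was at 172.8 and 229.4 CPM in PU.1 cKO against 311 and 346.4 CPM in control (-0.72 ± 0.16, adjusted p = 0.0276), a call lost without PU.1 cKO replicate 1 (-0.53, adjusted p = 0.234).

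In naive SpiB KO cells no member was DE by edgeR, where 6.22% of genes were. DESeq2 and voom also called none, and 7 members had an unadjusted edgeR p under 0.05, where 19.7% of all genes did. The changes of the members ran from -0.53 to 0.92 on the log2 scale, and 25 of 31 lay above 0 with a median of 0.19, where 48% of all genes lay below 0. Scap, the SREBP escort, was at 144.5 and 139.6 CPM against 104.3 and 99.6 CPM in control. Its change of 0.48 passed the test but not the fold. Fasn was at 104.6 and 109 CPM against 146.9 and 160.3 CPM and without control replicate 1 it was DE, and so was Idi1 (log2 changes -0.62 and 1.05).

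In naive cells of the double mutant 6 of 31 members were DE (19.4%), 4 higher and 2 lower, where 13.8% of genes were DE, 7.35% higher and 6.5% lower. Srebf2 was at 390.1 and 371 CPM and Abca1 at 156.6 and 203.5 CPM, both lower than in control as in PU.1 cKO (-0.70 ± 0.12, adjusted p = 0.00289, and -0.86 ± 0.16, adjusted p = 0.00485). Scd2 was at 505.4 and 501.3 CPM (0.62 ± 0.12, adjusted p = 0.00464), and without control replicate 1 its change of 0.57 was under the fold. The levels of Scap ran in order from control over the single mutants to 171 and 167.3 CPM in the double mutant. The values of PU.1 cKO, at 116.7 and 117.4 CPM, and of SpiB KO, at 144.5 and 139.6 CPM, lay between these and control with no overlap. The log2 change of Scap in the double mutant was 0.74 ± 0.10 (adjusted p = 0.000695). Mvd was at 21.9 and 16.9 CPM against 10.1 and 11.2 CPM (0.87 ± 0.19, adjusted p = 0.00975). Mvk, the mevalonate kinase, was at 19.2 and 16.3 CPM against 11.5 and 10.5 CPM (0.70 ± 0.18, adjusted p = 0.023), a call lost without double mutant replicate 1 (0.57, adjusted p = 0.168). The means of the single mutants lay between for Mvd and Mvk too, without passing the test. Over all 31 members the median change was 0.21, with 19 above 0.

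Markers of other cells moved with the same naive libraries. The 8 genes of the plasmacytoid dendritic cell list summed to 407.4 and 246.1 CPM in naive control, 379.8 and 325.4 CPM for PU.1 cKO, 2355 and 1834 CPM for SpiB KO and 2803 and 2497 CPM for the double mutant, and 7 of 8 rose in SpiB KO and in the double mutant. The T cell list (8 genes, 7 tested) summed to 125.3 and 76.96 CPM in control, 200 and 206.9 CPM for PU.1 cKO, 501.4 and 414.6 CPM for SpiB KO and 682 and 691.1 CPM for the double mutant, and 4 and 5 genes rose in the last 2 genotypes. The macrophage list summed to 24.3 and 12.1 CPM in control and 72.7 and 74.5 CPM in the double mutant, where 3 of 5 tested genes rose. The B cell list summed to 11100 and 10920 CPM in control and 8843 and 8193 CPM in the double mutant. The plasma cell list (6 genes, 5 tested) summed to 660.9 and 573.6 CPM in control, 859.6 and 828.9 CPM for PU.1 cKO, 870.6 and 736.4 CPM for SpiB KO and 1062 and 829.5 CPM for the double mutant. Of its genes 1 rose and 2 fell in PU.1 cKO, 1 rose in SpiB KO and 2 rose in the double mutant. The part of these lists in the naive changes of Mvk, Mvd, Scap, Scd2, Srebf2 and Abca1 was not tested.

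In CD40L cultures, 1 of 31 members was DE in PU.1 cKO, where 9.24% of 12721 genes were. Abcg1 was at 48.1 and 38.9 CPM in PU.1 cKO against 79.8 and 75.8 CPM in control (-0.87 ± 0.23, adjusted p = 0.0341). The call was lost without control replicate 1 (-0.81, adjusted p = 0.158) or PU.1 cKO replicate 2 (-0.69, adjusted p = 0.266), and the count of DE members was 3 without control replicate 1 (Fasn 0.87, Sqle 0.63 and Acly 0.61, all higher). In SpiB KO no member was DE by edgeR, and none had an unadjusted p under 0.05, where 3.61% of all genes did. DESeq2 and voom called none either, where 0.181% of all genes were DE.

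In CD40L cells of the double mutant 3 of 31 members were DE (9.68%), all lower, where 13.5% of genes were DE, 5.76% higher and 7.69% lower. Scd1 was at 603.4 and 408.2 CPM against 936.2 and 909.2 CPM in control, with no overlap (-0.88 ± 0.19, adjusted p = 0.00934). Abcg1 was at 38.55 and 22.97 CPM against 79.8 and 75.8 CPM (-1.35 ± 0.23, adjusted p = 0.00256). Both calls held without each library in turn. Stard4 was at 62.4 and 51.4 CPM against 121.1 and 81.4 CPM (-0.84 ± 0.23, adjusted p = 0.0291), and its call was lost without control replicate 1 (-0.52, adjusted p = 0.256) or double mutant replicate 2 (-0.70, adjusted p = 0.186). The other members leaned the same way without passing the test: 27 of 31 changes lay below 0, with a median of -0.31, where 49.9% of all genes lay below 0 with a median of 0.00. Genes of a pathway do not vary independently, so no test was made of this lean. The control libraries of this stage differed from each other, with Fasn at 715.2 and 362.6 CPM and 22 of 31 members higher in replicate 1. The pairs of PU.1 cKO (26 of 31) and of the double mutant (25 of 31) leaned the same way, and SpiB KO (10 of 31) did not. Between the control replicates the median log2 gap was 0.245 over the members and 0.249 over all genes. Without control replicate 2, 9 members were DE, all 3 of the above and Hmgcs1, Lss, Sc5d, Srebf2, Acaca and Fasn, from -0.98 to -0.61. Without double mutant replicate 1, 7 were DE, the 3 and Hmgcs1, Msmo1, Sc5d and Srebf2.

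The plasma cell list (6 genes) moved with this genotype, since it summed to 1182 and 1480 CPM in CD40L control, 2046 and 2401 CPM for PU.1 cKO, 1230 and 1552 CPM for SpiB KO and 3071 and 3240 CPM for the double mutant, where 5 of 6 genes rose. With LPS it summed to 830.6 and 902.4 CPM in control, 1309 and 1490 CPM for PU.1 cKO, 861.3 and 959.5 CPM for SpiB KO and 1886 and 1961 CPM for the double mutant, where 4 of 5 tested genes rose. The macrophage list, 2 of whose 10 genes were tested, summed to 39.0 and 55.0 CPM in CD40L control and 8.85 and 8.31 CPM in the double mutant, and both genes fell. With LPS it summed to 16.92 and 11.04 CPM in control and 6.10 and 5.42 CPM in the double mutant, where both tested genes fell. The T cell list summed to 53.8 and 50.5 CPM in CD40L control and 147 and 120.2 CPM in the double mutant, where 2 of 4 tested genes rose. Cd3e, 1 of the 8 genes of this list, was at 0.68 CPM or less in all 24 libraries, while 5 of 7 tested genes rose in the naive double mutant. With LPS the T cell list summed to 20.99 and 20.24 CPM in control and 107.6 and 113.4 CPM in the double mutant, where 2 of 3 tested genes rose. The B cell list summed to 5503 and 7110 CPM in CD40L control and 4696 and 3658 CPM in the double mutant, where 3 of 6 genes fell. With LPS the B cell list summed to 3730 and 3299 CPM in control and 3626 and 3637 CPM in the double mutant, where 2 of 6 genes rose. The cycling cell list had none of its 10 genes DE in any genotype of the cultures. The dendritic cell list summed to between 43.6 and 97.1 CPM in the cultures, and its defining gene Siglech was at 0.48 CPM or less there. The part of these lists in the changes of Scd1, Scd2, Abcg1, Stard4 and Elovl6 in the cultures was not tested.

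In LPS cultures, 3 of 31 members were DE in PU.1 cKO, 2 higher and 1 lower, where 6.54% of 12445 genes were. Scd2 was at 502.8 and 730.5 CPM against 274.5 and 367.1 CPM in control (0.96 ± 0.19, adjusted p = 0.0108). Abcg1 was at 8.03 and 9.53 CPM against 22.4 and 13.6 CPM (-1.01 ± 0.22, adjusted p = 0.0162). Both calls held without each library, though the change of Abcg1 moved to -0.59 (adjusted p = 0.0453) without control replicate 1. Elovl6 was at 19.8 and 29.5 CPM against 13.6 and 17.1 CPM (0.70 ± 0.19, adjusted p = 0.0426), and its call was lost without control replicate 1 (0.57, adjusted p = 0.175) or PU.1 cKO replicate 2 (0.38, adjusted p = 0.354). Of all members, 26 of 31 lay above 0 with a median of 0.16, where 50.4% of all genes lay below 0. In SpiB KO, where 2.21% of genes were DE, none of the members was DE by edgeR, DESeq2 or voom. An unadjusted edgeR p under 0.05 was found for 3 members, where 13.3% of all genes had one.

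In LPS cells of the double mutant Scd2 alone was DE among the 31 members (0.75 ± 0.18, adjusted p = 0.0142), at 542.1 and 484.9 CPM, where 13.5% of genes were DE. Without control replicate 1 its change of 0.57 was under the fold, whereas Idi1 was DE without that library (-0.67) and without double mutant replicate 1 (-0.62, adjusted p = 0.0103), where the count of DE members was 2. Idi1 was at 22.7 and 21.1 CPM in the double mutant against 30.8 and 36.9 CPM in control, with no overlap. The members were evenly placed, 16 above and 15 below 0. Scd1, which fell with CD40L, was at 897.4 and 850.4 CPM against 678.9 and 697.2 CPM in LPS control and had a change of 0.42 ± 0.10 (adjusted p = 0.01), under the fold. Abcg1 was at 17.4 and 18.1 CPM in the double mutant, within the control libraries.

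**Figure D4:**
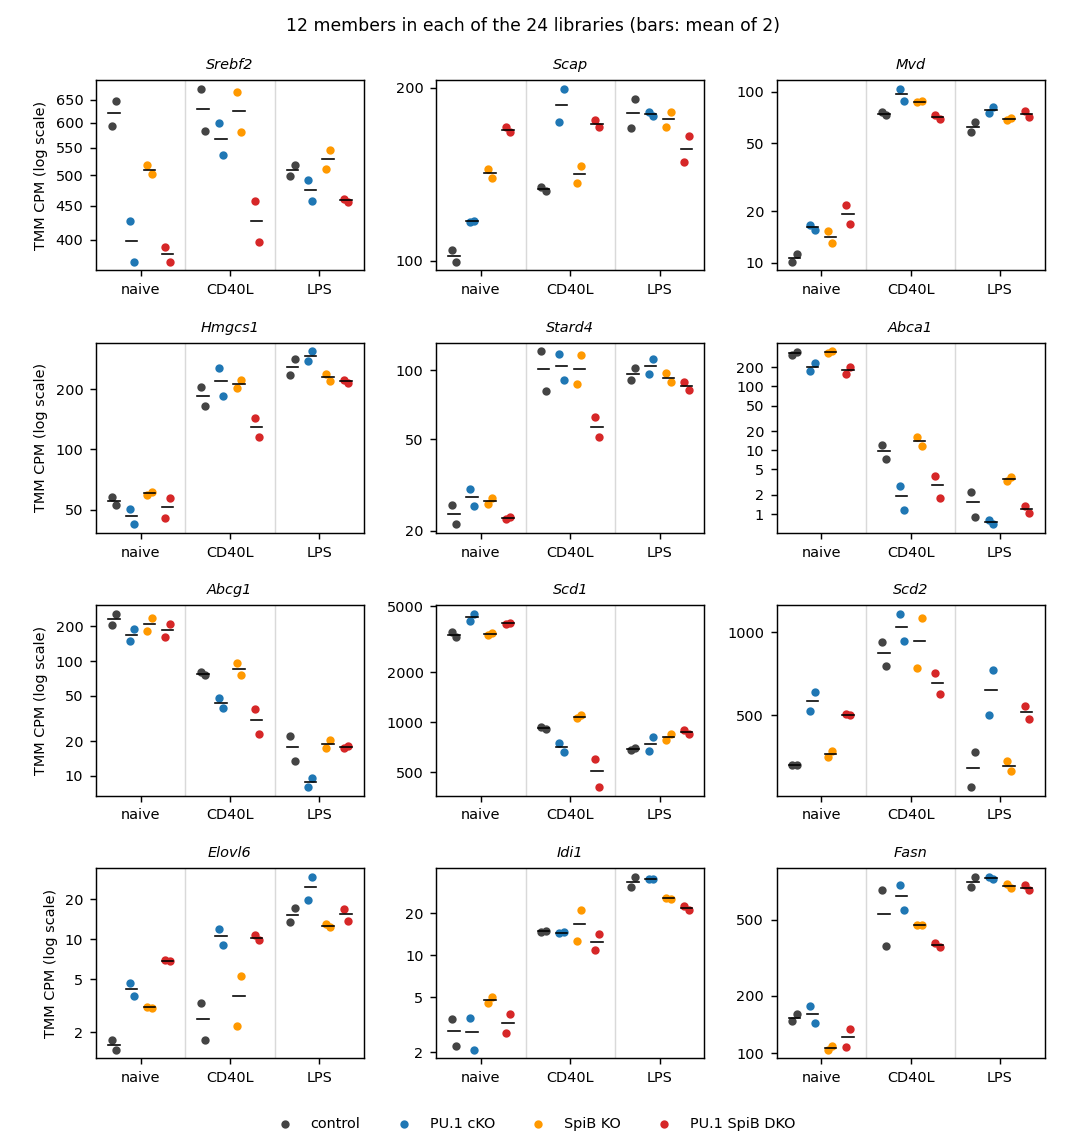
Level of 12 members in each of the 24 libraries as TMM-normalized CPM on a log scale, by stage (x axis) and genotype (colour); points are libraries and bars are means of 2. Scd2 lies above its controls in naive and LPS libraries of PU.1 cKO and of the double mutant, and Scd1, Abcg1 and Stard4 in CD40L PU.1 SpiB DKO libraries lie below theirs.

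Elovl6 and Abca1 passed the p and the fold in several comparisons where their mean was below the RPKM minimum, so they were not counted as DE. The naive levels of Elovl6 ran in order, from 1.75 and 1.49 CPM in control to 3.11 and 3.05 CPM for SpiB KO, 4.70 and 3.72 CPM for PU.1 cKO and 6.93 and 6.81 CPM for the double mutant, and no group overlapped another. The log2 changes were 0.92 (adjusted p = 0.0982), 1.37 (adjusted p = 0.0189) and 2.09 (adjusted p = 0.000647). With CD40L it was at 3.30 and 1.74 CPM in control, 12.0 and 9.11 CPM for PU.1 cKO, 2.22 and 5.28 CPM for SpiB KO and 10.7 and 9.80 CPM for the double mutant (log2 changes 2.00 and 1.99 in PU.1 cKO and in the double mutant). Abca1 with CD40L was at 12.2 and 7.38 CPM in control, 2.75 and 1.14 CPM for PU.1 cKO, 16.1 and 11.8 CPM for SpiB KO and 4.00 and 1.77 CPM for the double mutant. Its changes were -2.56 (adjusted p = 0.00821) and -1.79 (adjusted p = 0.0321) in PU.1 cKO and the double mutant. In LPS SpiB KO it was at 3.35 and 3.81 CPM against 2.20 and 0.91 CPM in control (1.28, adjusted p = 0.147).

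The motif GAGGAAGT, a sequence that PU.1 and SpiB can bind, was found on either strand in the promoters of 3 of the 24 members (12.5%), Acat2, Scap and Elovl6, and in 3.69% of all genes. The windows around it are shown for Scap and Elovl6 because their levels ran in order over the naive genotypes. Capitals mark ACTTCCTC, the motif on the opposite strand, at 64 bases before the start for the first of 2 promoters of Scap and at 180 bases for Elovl6.
Scap, chr9:110333203-110333252, plus strand: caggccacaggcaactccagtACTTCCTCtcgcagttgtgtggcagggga
Elovl6, chr3:129532186-129532235, plus strand: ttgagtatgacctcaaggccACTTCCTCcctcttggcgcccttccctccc
These letters say nothing of binding. In Scap, 13.2% of the exon bases are shared with 5830462I19Rik on the opposite strand.

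The double mutant was also set against PU.1 cKO. In naive cells this pair differed in Spi1 as well as in Spib, since Spi1 was higher in the double mutant by 0.92 on the log2 scale (adjusted p = 0.000481). In naive cells 1 of 31 members was DE, where 7.18% of genes were: Acat2, the thiolase that starts the pathway, was at 8.55 and 10.2 CPM against 15.73 and 13.95 CPM (-0.65 ± 0.22, adjusted p = 0.0984). This call was lost without each of the 4 libraries in turn (-0.77 to -0.54, adjusted p from 0.174 to 0.374). With CD40L 2 of 31 were DE (6.45%), where 2.93% of genes were. Hmgcs1 was at 144.3 and 115.3 CPM against 254.2 and 185.2 CPM (-0.74 ± 0.20, adjusted p = 0.0886), and Stard4 at 62.4 and 51.4 CPM against 117.7 and 91.1 CPM (-0.86 ± 0.23, adjusted p = 0.0895). Neither call held without PU.1 cKO replicate 1 or without double mutant replicate 2 (adjusted p from 0.412 to 0.55), and without double mutant replicate 1 the count was 7, these 2 included. Here 29 of 31 changes lay below 0, with a median of -0.40, where 48.3% of all genes lay below 0. Blocking on the replicate number gave a count of 5, with Fasn (-0.81, adjusted p = 0.075), Sqle (-0.60, adjusted p = 0.0288) and Scd2 (-0.67, adjusted p = 0.133) added.

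With LPS 3 of 31 members differed between the double mutant and PU.1 cKO, where 7.96% of genes did. Idi1 was lower, at 22.7 and 21.1 CPM against 35.7 and 35.5 CPM (-0.65 ± 0.10, adjusted p = 0.00358). Elovl6 was lower, at 16.96 and 13.78 CPM against 19.8 and 29.5 CPM (-0.62 ± 0.19, adjusted p = 0.0456), a call lost without PU.1 cKO replicate 2 (-0.30) or double mutant replicate 2 (-0.49). Abcg1 was higher, at 17.4 and 18.1 CPM against 8.03 and 9.53 CPM (1.08 ± 0.22, adjusted p = 0.0108). Without PU.1 cKO replicate 1 the count was 5, with Acat2 (-0.63) and Lss (-0.68) added.

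Whether the change in the double mutant departed from the sum of the changes in PU.1 cKO and SpiB KO was tested by an interaction term in each stage. No member passed an adjusted p of 0.15 in naive, CD40L or LPS cells by edgeR, where 1%, 1.06% and 1.58% of genes did, and voom called none. DESeq2 called 0, 1 and 1. By edgeR 3, 12 and 5 members had an unadjusted p under 0.05, where 11.2%, 7.74% and 11.1% of all genes did. The smallest adjusted p by edgeR was 0.419, 0.264 and 0.28. With CD40L 29 of 31 interaction terms lay below 0, with a median of -0.52, where 48.4% of all genes lay below 0. With blocking on the replicate number, 1384 of the 12500 naive genes passed, among them 2 members (Hsd17b7 -0.64 and Abcg1 0.30). With the same block 5 CD40L members (Hmgcs1 -0.94, Msmo1 -0.77, Sqle -0.73, Fdft1 -0.66 and Mvd -0.64) and 3 LPS members (Lss -0.50, Hsd17b7 -0.38 and Acaca -0.28) passed. The count was 2 with CD40L without double mutant replicate 1 and 4 with LPS without control replicate 2.

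The change in the double mutant was also compared between stages, in a fit of all 24 libraries. It differed between CD40L and naive in 10 of 31 members, all with the lower value in CD40L, where 16.5% of 13684 genes passed and 9.47% did so in that direction. Between LPS and naive it differed in 8 members, 7 lower and 1 higher in LPS, where 29.3% of genes passed. Between LPS and CD40L it differed in 10 members, 8 higher and 2 lower in LPS, where 28.4% passed. Scd1 went from 3498 and 3262 CPM in control to 3925 and 3979 CPM in the double mutant in naive cells, fell with CD40L and was above control with LPS, so that the change with CD40L was 1.09 ± 0.21 below that in naive cells and 1.21 ± 0.21 below that with LPS on the log2 scale (adjusted p = 0.00125 and 0.00105). Scd2, at 712.9 and 595.2 CPM in the CD40L double mutant against 923.7 and 754.1 CPM in control, had the same order. Scap, which was DE in naive cells, was at 175.6 and 170.9 CPM in the double mutant against 134.6 and 132.2 CPM in control with CD40L. With LPS it was at 148.5 and 164.6 CPM against 170.1 and 191.4 CPM. Its change with LPS was 0.94 ± 0.15 below that in naive cells (adjusted p = 0.000221). The pooled fit shares its control libraries between these 3 comparisons.

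**Figure D5:**
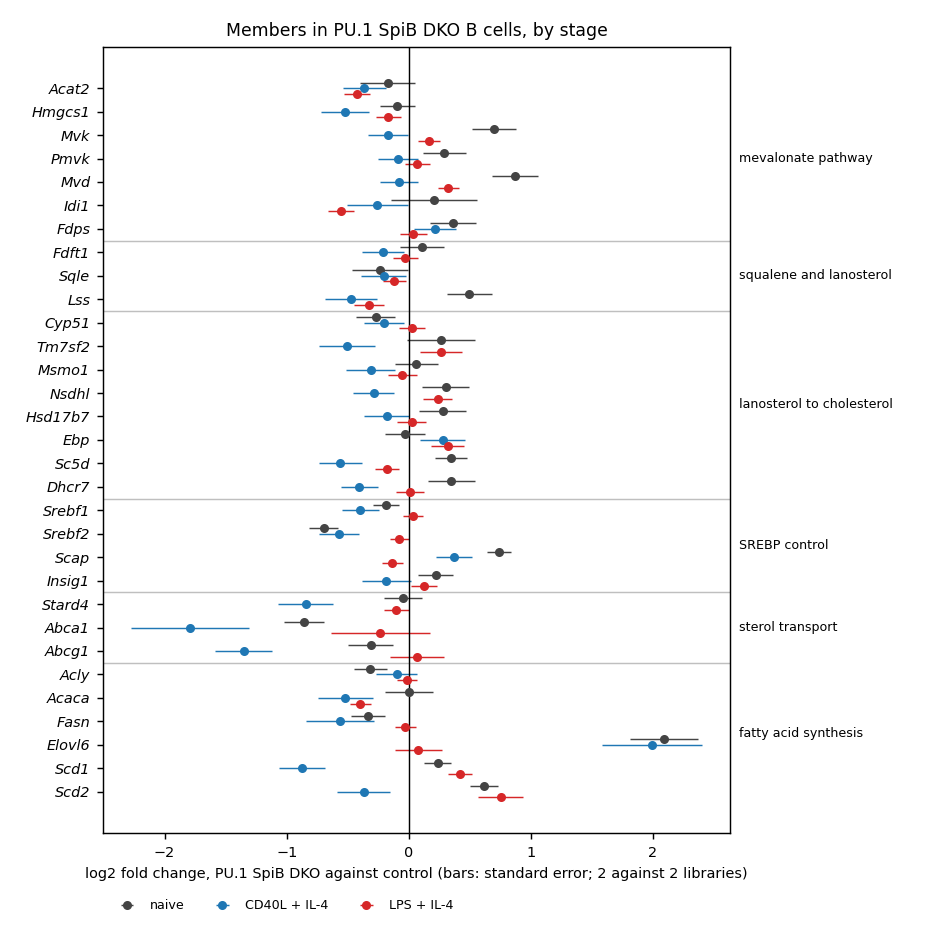
log2 fold change of each member in PU.1 SpiB DKO against control in naive cells, with CD40L and IL-4 and with LPS and IL-4, with standard errors (2 against 2 libraries). Scd1 lies at -0.88 with CD40L, and Elovl6, Scap, Mvd and Mvk lie furthest right in naive cells or, for Elovl6, in naive cells and with CD40L.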

How the data were processed

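RNA-seq of lymph node B cells was analysed in 24 libraries, 2 for each of 4 genotypes in 3 stages. Per the study's methods, the authors aligned reads with Subread to GRCm38/mm10 and counted uniquely mapped reads over RefSeq exons with featureCounts, and the submitters' processing notes name limma too. The deposited tables hold these raw counts per gene for 27179 genes, naive and LPS in one table and CD40L in another, and the deposited log2 RPKM values were quantile normalized by the authors, with the LPS libraries normalized separately. The labels attach the CD40L protocol to every sample, and stages were taken from the sample labels. Entries without a symbol (517, with 0.162% of counts) were not removed, and those that passed the count filter below entered library sizes and tests. No sample column was left unused (0).

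Genes with at least 0.5 CPM in 2 libraries of the stage were kept, which left 12500 naive, 12721 CD40L and 12445 LPS genes, and 13684 for comparisons between stages. Counts were normalized by TMM and tested in edgeR 4.0.16 (quasi-likelihood, robust) with a fit per stage, or of all 24 libraries between stages, in R 4.3.3. DE meant an adjusted p below 0.15 (Benjamini-Hochberg), a fold over 1.5 and a mean deposited log2 RPKM above 0. Interaction terms and differences between stages needed the adjusted p only. Genes without an RPKM value (227 naive, 232 CD40L and 0 LPS) could not be DE. Between stages these were 390 genes for CD40L against naive and 1446 for each comparison with LPS. They stayed among the 13684 genes tested when the shares of DE genes were taken. Levels are CPM with TMM factors over all 24 libraries, and ± is the standard error of the fit. Whether the 2 libraries of a group came from separate animals is not stated in the labels, so p-values measure the spread between these libraries, and an exact test of 2 against 2 cannot go below p = 0.333. Msmo1 is listed under an older symbol and was matched by its gene identifier.

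Alternatives were DESeq2 1.42.0, limma 3.58.1 voom with quantile normalization, other size factors, no filter on low counts, no RPKM minimum, an adjusted p of 0.05, 1 fit of all 24 libraries, the replicate number as a block and leaving out each library. Deviations of libraries with the same number from their group means correlated at 0.139 to 0.327 in naive and at 0.409 to 0.573 in LPS cells, which pairs them, and at -0.0603 to 0.352 with CD40L, where 1 of 6 pairs was negative. The scripts were tested on simulated data. All members were counted and named, and other pathway genes were named by the 3 largest rises and falls among DE genes whose libraries did not overlap. Members and lists were chosen with earlier results of these data known.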

Additional observations from a re-analysis of the deposited data

Results flagged for a closer look

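The change of a member in the double mutant against control was compared between stages by a difference of contrasts in edgeR, and 28 differences had an adjusted p under 0.15 over 13684 genes. Values are log2 differences ± SE, and their causes were not tested.

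Between CD40L and naive, 10 members differed (32.3%), each with the lower change in CD40L, where 16.5% of all genes differed. In the sterol pathway these were Mvk (-0.85 ± 0.20, adjusted p = 0.00781), Mvd (-0.93 ± 0.19, adjusted p = 0.00293), Lss (-0.95 ± 0.28, adjusted p = 0.033), Nsdhl (-0.57 ± 0.23, adjusted p = 0.147), Sc5d (-0.89 ± 0.19, adjusted p = 0.00363) and Dhcr7 (-0.73 ± 0.23, adjusted p = 0.0549). Among transporters they were Stard4 (-0.78 ± 0.26, adjusted p = 0.0702) and Abcg1 (-1.03 ± 0.34, adjusted p = 0.0677), and among desaturases Scd1 (-1.09 ± 0.21, adjusted p = 0.00125) and Scd2 (-0.97 ± 0.28, adjusted p = 0.0296). Mvk, Mvd, Sc5d, Scd1 and Scd2 passed without each of the 8 libraries in turn. Lss was lost without CD40L control replicate 1 (adjusted p = 0.157), Nsdhl without 5 libraries, and Dhcr7, Stard4 and Abcg1 without 3 each.

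Between LPS and naive, 8 members differed (25.8%), a share below the 29.3% of all genes. Mvk (-0.60 ± 0.19, adjusted p = 0.0389), Mvd (-0.61 ± 0.19, adjusted p = 0.0309), Idi1 (-0.83 ± 0.35, adjusted p = 0.115), Lss (-0.89 ± 0.27, adjusted p = 0.0287), Sc5d (-0.59 ± 0.19, adjusted p = 0.0333), Scap (-0.94 ± 0.15, adjusted p = 0.000221) and Elovl6 (-2.08 ± 0.43, adjusted p = 0.00245) had the lower change with LPS, and Srebf2 the higher (0.56 ± 0.17, adjusted p = 0.0287). Sc5d, Srebf2, Scap and Elovl6 passed without each library. Mvk and Mvd were lost without naive double mutant replicate 1 (adjusted p = 0.17 and 0.19), Lss without LPS control replicate 2 (adjusted p = 0.154) and Idi1 without 5 libraries.

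Between LPS and CD40L, 10 members differed (32.3%), a share near the 28.4% of all genes. Tm7sf2 (0.69 ± 0.30, adjusted p = 0.132), Srebf1 (0.35 ± 0.15, adjusted p = 0.126), Srebf2 (0.41 ± 0.17, adjusted p = 0.109), Stard4 (0.66 ± 0.25, adjusted p = 0.0806), Abca1 (1.57 ± 0.63, adjusted p = 0.105), Abcg1 (1.34 ± 0.35, adjusted p = 0.0151), Scd1 (1.21 ± 0.21, adjusted p = 0.00105) and Scd2 (1.04 ± 0.28, adjusted p = 0.0162) had the higher change with LPS. Scap (-0.58 ± 0.15, adjusted p = 0.0131) and Elovl6 (-2.00 ± 0.42, adjusted p = 0.00428) had the lower. Abcg1, Scd1, Scd2, Scap and Elovl6 passed without each library. The other 5 were lost without 4 to 6 of the 8 libraries.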

How the results depend on the processing

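No call changed direction under any alternative. Of 23 DE calls of members between genotypes, 10 were kept under all alternatives and 13 were lost under at least 1. Of 57 between control stages 54 were kept, and of 28 differences of the double mutant change between stages 14 were kept. The cause was not tested. The counts of members that moved were these. Without the RPKM minimum they were 1 for naive SpiB KO, 2 for the naive double mutant against PU.1 cKO, 3 for CD40L PU.1 cKO, 5 for the CD40L double mutant and 1 for LPS SpiB KO. Without the filter on low counts, 6 were DE for the CD40L double mutant against PU.1 cKO, and 6 CD40L and 2 LPS interaction terms passed. With DESeq2 these were 5, 1 and 1. With voom, 2 were DE for the naive double mutant against PU.1 cKO and 2 for the LPS double mutant. In 1 fit of all 24 libraries, 1 was DE for naive SpiB KO, 6 for the CD40L double mutant against PU.1 cKO, 2 for the LPS double mutant, and 6 CD40L interaction terms passed. At an adjusted p of 0.05, 0 were left for the double mutant against PU.1 cKO in naive cells and 0 with CD40L, and the double mutant change differed in 6 between CD40L and naive and in 5 between LPS and CD40L. With the replicate block, 2 naive, 5 CD40L and 3 LPS interaction terms passed and 5 were DE for the CD40L double mutant against PU.1 cKO, and the block changed no other call. Over all naive genes 1384 interaction terms passed with this block. With CD40L the shared numbers do not pair the libraries by the correlation check, so there the block is a check only. Leaving out each library gave 0 to 2 for naive SpiB KO, 0 to 1 for the naive double mutant against PU.1 cKO, 0 to 3 for CD40L PU.1 cKO, 2 to 9 for the CD40L double mutant, 0 to 7 for the CD40L double mutant against PU.1 cKO, 0 to 2 for the CD40L interaction, 1 to 2 for the LPS double mutant, 2 to 5 for the LPS double mutant against PU.1 cKO, 0 to 4 for the LPS interaction and 7 to 11 for control LPS against CD40L. The double mutant change then differed in 6 to 11 members between CD40L and naive (6 without CD40L double mutant replicate 2) and in 5 to 11 between LPS and CD40L (5 without that library, and 6 without CD40L control replicate 1, LPS control replicate 2 or LPS double mutant replicate 1). Where a library was left out, the lone library of its group was assumed to vary like the others.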

Other observations

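Genes of lipid metabolism outside the 31 members were counted from lists chosen with earlier results known. Of 10 other genes of SREBP control and isoprenoid synthesis, 6 were DE in control cells with CD40L (60%) and 4 with LPS (40%), and 1 of them rose in each. Of all genes tested, 35% were DE with CD40L and 47.4% with LPS. Rnf139, an endoplasmic reticulum ubiquitin ligase, fell by 1.45 and 1.49 on the log2 scale, and Insig2 fell by 0.92 and 1.27. None of the 10 was DE in any genotype against control. Of 12 tested genes of sterol handling and LXR, 1 rose and 3 fell with CD40L, and 1 rose and 5 fell with LPS. The shares of this list that were DE, 33.3% and 50%, were near those of all genes. Mylip, an LXR target that degrades lipoprotein receptors, fell most (-3.40 and -4.64), and in LPS cells of the double mutant it was higher than in control by 1.44. In naive cells Npc2 and Npc1, which release cholesterol from lysosomes, were higher in SpiB KO (1.02 and 0.63) and the double mutant (1.23 and 0.79).

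Of 26 other tested genes of fatty acid synthesis and elongation, 8 rose and 5 fell with CD40L and 9 rose and 7 fell with LPS. This was 50% and 61.5% of the list, where 35% and 47.4% of all genes were DE. The front-end desaturases Fads1 (5.07 and 5.00) and Fads2 (3.95 and 3.86), which build polyunsaturated fatty acids, rose most. In naive cells Fads3, Fads2 and Fads1 were higher in SpiB KO (4.29, 4.13 and 2.02) and in the double mutant (4.74, 4.25 and 2.68), the same libraries in which the dendritic cell list summed to 1834 CPM or more, against 407.4 CPM or less in naive control and PU.1 cKO. Its part in these values was not tested.

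Of 18 genes of fatty acid oxidation, 5 rose and 2 fell with CD40L and 7 rose and 2 fell with LPS. This was 38.9% and 50% of the list, near the 35% and 47.4% of all genes that were DE. Cpt1a, which admits fatty acids to mitochondria, was higher in naive PU.1 cKO (0.92) and the double mutant (1.497) and in the LPS double mutant (1.6). Cpt2, its inner membrane partner, was higher in PU.1 cKO and the double mutant with CD40L (1.13 and 1.63) and with LPS (0.70 and 0.91). In naive cells 1 of 18 rose in PU.1 cKO (5.56%) and 3 in the double mutant (16.7%), against 8.26% and 13.8% of all genes. With CD40L 1 rose and 2 fell in PU.1 cKO, and 2 rose and 1 fell in the double mutant. This was 16.7% of the list in each, where 9.24% and 13.5% of all genes were DE. With LPS 1 and 2 rose (5.56% and 11.1%), against 6.54% and 13.5% of all genes.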
